A study of Sus scrofa with 4 samples.

Results

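Small GTPases of the Rab, Arf, Arl and Sar1 families, vesicle fusion proteins, sorting complexes and clathrin coats were followed in porcine (Sus scrofa) blastocysts. Members were taken by gene symbol: every array probe whose symbol begins as a Rab, Arf, Arl, Sar1, VAMP, syntaxin, SNAP, VPS, sorting nexin, adaptor subunit or clathrin gene was included. This gave 219 of 43794 probes, for 151 of 10024 named genes. Blastocysts whose oocytes had met high NEFAs (non-esterified fatty acids, the free fatty acids of blood and follicular fluid) were compared with blastocysts from control oocytes. Each of 4 arrays carried RNA of a NEFA pool in one dye and of a control pool in the other, with NEFA in Cy3 on arrays 1 and 2 and in Cy5 on arrays 3 and 4. The design describes pools of 10 blastocysts taken on days 7 and 8, without saying whether a pool mixed days. It counts 4 pools without saying whether that is per condition. Each channel of an array is taken here as a pool of its own, and n = 4 counts arrays. The dose and make-up of the fatty acids and the breed are not given in the labels, and exposure is stated for the oocyte only. The arrays are described as biological replicates, but separate cultures are not mentioned, so the p-values cover only the spread between these arrays, part of which may be technical. Because each pool holds whole embryos, fewer cells of a type and less RNA per cell cannot be told apart.

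Membrane traffic moves proteins and lipids between compartments in vesicles. Arf and Sar1 GTPases start coat assembly, clathrin and its adaptor complexes select cargo and shape the bud, Rab GTPases mark each compartment and recruit tethers, and SNARE proteins drive the fusion of vesicle and target membranes. VPS proteins and sorting nexins make up the machines that return receptors from endosomes or send them on to the lysosome. In an early embryo this traffic serves uptake of nutrients, polarity of the trophectoderm (the outer epithelium of the blastocyst) and secretion into the cavity.

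Signal above background was found for 97 of the 151 genes. A probe was kept if its signal passed a limit, set 2 SD above the average negative control spot, in at least 3 of the 4 pools of a condition. That held for 125 of 219 member probes (57.1%), while the background share over all probes with a symbol was 43.4%. The measured genes were 31 of 49 in the Rab family, 14 of 17 in the Arf, Arl and Sar1 family, 11 of 18 SNARE genes, 17 of 26 VPS genes, 12 of 21 sorting nexins and 12 of 20 adaptor and clathrin genes. Signal exceeded the limit in all 8 pools for 76 of the 97, and for 3175 of all 4705 measured genes. Through the NEFA pools alone 4 genes were kept, and through the control pools alone 8. The filter itself makes these differ in detection, so nothing is read from them. The mean log2 signals of the measured genes in a condition ran from 8.02 to 15.50, but brightness depends on the probe, so genes are not ranked by it. Not all the symbols stand for traffic proteins. ARL6IP4 is known as a splicing-associated protein, and VPS72, which was not above background, as a chromatin remodelling subunit. The Rab and Arl symbols also take in proteins named as partners of these GTPases, not GTPases themselves. Among the measured genes RAB11FIP1, RAB11FIP4, RAB3GAP2, ARL2BP, ARL6IP5 and ARL6IP6 are such, named here for their symbols. They count in the family totals and medians. Of the 54 genes that were not kept, 18 had no probe above the limit in any pool, 23 reached it in 1 or 2 pools and 13 in 3 or 4 pools divided over the conditions. Well-studied members in that set were RAB11B, VAMP2, STX6, SNX27 and AP1M1.

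The 4 arrays did not resemble each other closely. Across the 97 members, the log2 ratios of NEFA over control correlated at r = -0.52 between arrays 2 and 4 and at r = -0.39 between arrays 1 and 2, which share a dye orientation. The other pair with a shared orientation, arrays 3 and 4, gave 0.17, and the remaining pairs gave -0.20, 0.15 and 0.03. Over all 17145 kept probes arrays 2 and 4 gave -0.54 and arrays 1 and 2 gave -0.24, the second being -0.03 over all 43794 probes. Directions are those of the labelled dyes. The points share their arrays and pools, so the correlations are a description. The dye term of the fit had a median size of 0.18 among members, above the 0.11 of the NEFA term. Between 38.3% and 49.0% of all probes were above the limit in a channel. Of the trophectoderm markers 8 of 11 with a probe were kept, GATA2, GATA3, TFAP2A and TFAP2C among them, and their summed linear signal was 74623 to 86196 in NEFA pools and 67909 to 87968 in control pools. That sum rests mostly on the brightest probes, those of TFAP2C and DAB2. Of these 8 markers, 3 had mean ratios above 0 and 5 below. ELF5 was lower in NEFA on 4 of 4 arrays with a mean log2 ratio of -0.35, and passed the limit in no NEFA pool and 3 control pools. Only its control pools met the filter, which favours a ratio below 0, and its direction is not interpreted. Of the inner cell mass markers 0 of 4 with a probe were kept (SOX2, KLF4, FGF4 and PRDM14). Primitive endoderm markers (4 of 5 kept) summed to 4996 to 6667 in NEFA pools and 4893 to 6718 in control pools. Oocyte markers (4 of 8 kept) summed to 1394 to 1924 in NEFA pools and 1399 to 1787 in control pools. Cumulus and granulosa markers (2 of 4 kept) summed to 4213 to 12721 in NEFA pools and 5396 to 9745 in control pools. Sperm markers (2 of 6 kept) summed to 615 to 996 in NEFA pools and 678 to 1187 in control pools. The ranges of the conditions overlapped for each list with a kept gene, and the part of these markers in the results was not tested.

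No member passed the test for a difference between blastocysts of NEFA-exposed and control oocytes. In limma, 0 of the 97 genes reached an adjusted p of 0.05, and 0 of 17144 tested probes did (0% called). Every adjusted p among members was 1.00 after rounding. Of the members, 46 had a mean ratio above 0 and 51 below, where 46% of all measured genes lay above 0. This split, and the family counts on either side of 0 given below, depended on the processing: 34 members lay above 0 under median centring, 32 without array 1 and 30 without array 4. Fits without an array, here and below, kept the dye term. The array left alone in its dye orientation then weighed as much as the arrays of the other orientation together. Such a value is therefore not the plain mean of the remaining arrays, and can differ from it in size or sign. A mean change of 1.5-fold was reached by 1 member (RAB38), against 0.361% of genes. The median 95% interval of a member was ± 0.41 on the log2 scale, a factor of 1.33. That interval is not adjusted for the number of probes tested, and the adjusted threshold needs larger changes: in simulated data it recovered 17.6% of 2-fold changes. An unadjusted p under 0.05 was reached by 4 members (4.12%), against 1.42% of all measured genes and 1.53% of tested probes. All 4 had lower signal in NEFA pools, a direction in which 1.02% of measured genes reached that p, and 0.404% did in the other. Without array 4, 0 members reached it.

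**Figure D1:**
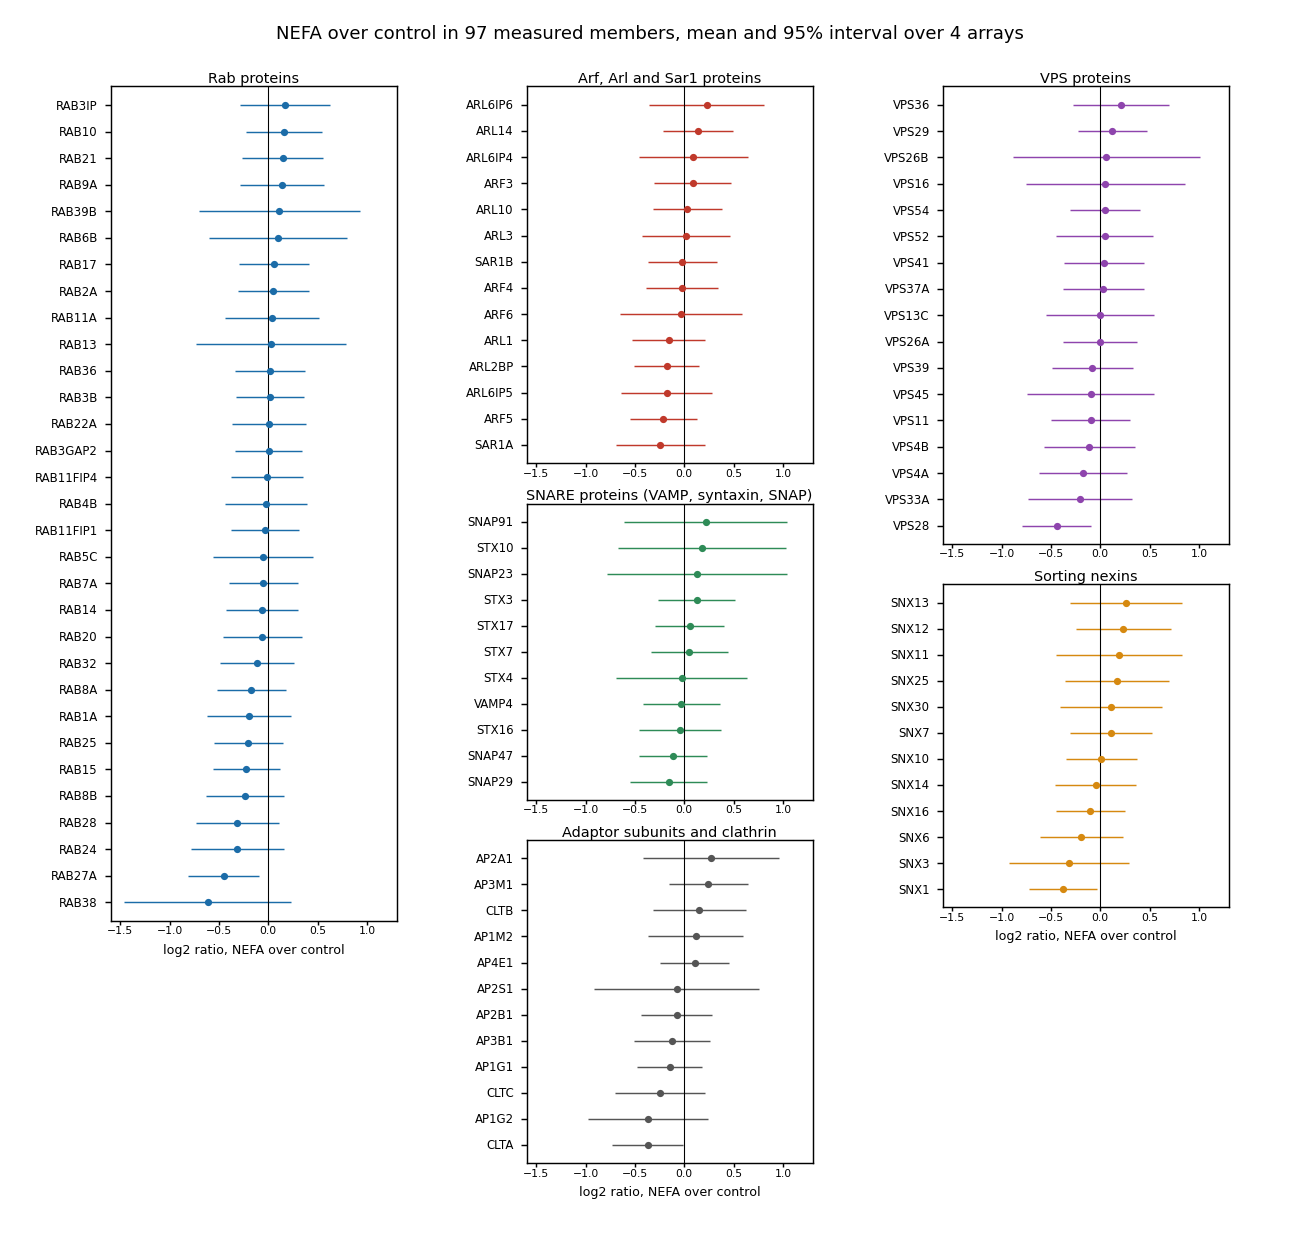
Mean log2 ratio of NEFA over control (x axis) for each of the 97 measured members, by family, with the 95% interval of the limma fit as a bar (n = 4 arrays). The intervals of 4 members, RAB27A, VPS28, SNX1 and CLTA, lie below 0, and none of the 4 passed the adjusted threshold.

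RAB27A, a GTPase of regulated secretion that brings secretory granules and lysosome-related organelles to the plasma membrane, had log2 signals of 10.87, 11.01, 11.08 and 10.79 in NEFA pools 1 to 4, against 11.19, 11.27, 11.50 and 11.60 in control pools 1 to 4. Each NEFA pool was below each control pool. Pools that did not overlap were found for 2 of 97 members and for 1.13% of measured genes. The mean log2 ratio of RAB27A was -0.45 ± 0.14 (SE, n = 4), or 1.37-fold lower in NEFA pools, with a limma p of 0.022 and an adjusted p of 1.00. A second kept probe of the gene, above background in 1 NEFA pool and 3 control pools, was at -0.14 ± 0.14. Only the control pools of this second probe met the filter, which favours a ratio below 0, and its sign is not interpreted. Another probe of RAB27A, which was not kept, had log2 ratios of 0.62, -0.1, 0.08 and 0.01 on arrays 1 to 4.

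SNX1, a sorting nexin that bends endosomal membrane into the tubules of receptor retrieval, was the other member without overlap. Its log2 signals were 14.11, 13.73, 13.71 and 13.69 in NEFA pools, against 14.24, 14.14, 14.23 and 14.14 in control pools. NEFA pool 1 came close to the lowest control pools, and the other NEFA pools lay further below. The mean log2 ratio was -0.38 ± 0.14 (SE, n = 4), with a limma p of 0.037 and an adjusted p of 1.00.

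VPS28, a subunit of the ESCRT complex that sorts ubiquitinated receptors into the lysosomal route, had log2 signals of 9.82, 10.65, 9.55 and 9.52 in NEFA pools, against 9.84, 10.93, 10.18 and 10.35 in control pools. The conditions overlapped, since both pools of array 2 were high. Within arrays its log2 ratio was -0.01, -0.28, -0.63 and -0.83, larger in size on the arrays with NEFA in Cy5. The mean was -0.44 ± 0.14 (SE, n = 4), with a limma p of 0.022 and an adjusted p of 1.00.

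CLTA, a light chain of clathrin, had log2 signals of 14.85, 15.11, 14.82 and 14.59 in NEFA pools, against 14.94, 15.12, 15.33 and 15.48 in control pools. The conditions overlapped. The ratios were -0.09 and -0.01 on the arrays carrying NEFA in Cy3, and -0.50 and -0.89 on those carrying it in Cy5. The mean log2 ratio was -0.37 ± 0.14 (SE, n = 4), with a limma p of 0.045 and an adjusted p of 1.00. The other kept probe of CLTA had the opposite sign, 0.31 ± 0.27, so the 2 probes do not give one direction for this gene.

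The direction was the same on 4 of 4 arrays for 6 members, all lower in NEFA pools, and for 0 members higher. These were the 4 genes above, ARF5 and AP1G1. They make up 6.19% of the members, against 7.5% of measured genes, 4.31% lower and 3.19% higher on 4 of 4 arrays. ARF5, an Arf GTPase of the Golgi, had ratios of -0.45, -0.24, -0.02 and -0.14. AP1G1, the large gamma subunit of the adaptor that works between the Golgi and endosomes, had ratios of -0.22, -0.16, -0.13 and -0.08. AP1G1 passed the limit in 1 NEFA pool and 3 control pools, and was kept through the control pools alone. It counts among the 6, but nothing is read from its direction.

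**Figure D2:**
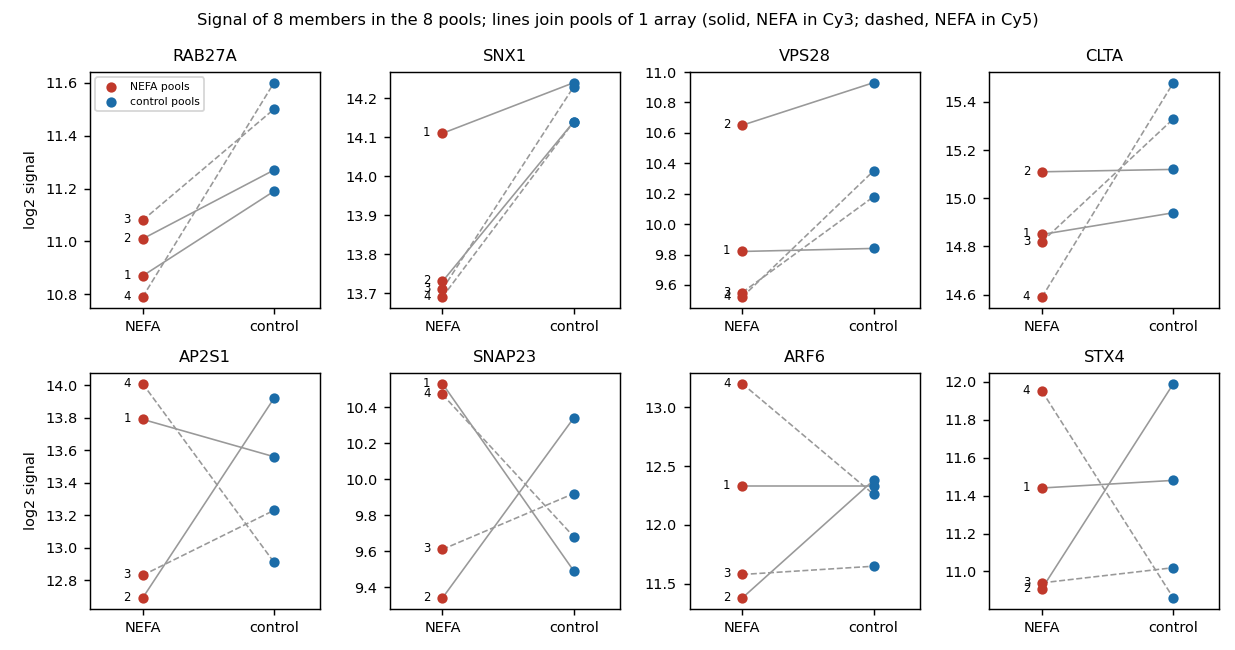
Log2 signal (y axis) of 8 members in the 4 NEFA pools and the 4 control pools, with lines joining the 2 pools of an array. For RAB27A and SNX1 the 4 NEFA pools lie below the 4 control pools, while for AP2S1, SNAP23, ARF6 and STX4 the lines of arrays 2 and 4 cross in opposite directions.

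In the Rab family, 14 of 31 measured genes had mean ratios above 0 and 17 below, with a family median of -0.02. The median was 0.00, -0.03, -0.03 and -0.09 on arrays 1 to 4. Of the Rabs of early endosomes and recycling 7 of 8 with a probe were measured. RAB5C, which directs fusion of early endosomes, was at -0.05 ± 0.20, and RAB11A, the main recycling Rab, at 0.04 ± 0.19. RAB11A had -0.47 on array 1 and 0.38 and 0.32 on arrays 2 and 3, so its mean near 0 stands for arrays that disagree. RAB25, an epithelial relative of RAB11A, was at -0.20 ± 0.14, with -0.77 and -0.48 where NEFA was in Cy3 and 0.26 and 0.17 where it was in Cy5. RAB14 and RAB21, both of the endosomal system, were at -0.06 ± 0.15 and 0.15 ± 0.17. RAB22A, of early endosomes, was at 0.00 ± 0.15.

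Among Rabs of the endoplasmic reticulum and Golgi, RAB1A, needed for transport between them, was at -0.19 ± 0.17 (SE, n = 4), and at -0.04 without array 4. RAB2A, which acts on the same route, had log2 signals of 15.65, 15.33, 15.51 and 15.51 in NEFA pools, against 15.56, 15.53, 15.23 and 15.50 in control pools. The ranges overlapped, and its mean ratio was 0.05 ± 0.15. For secretory Rabs, RAB8A and RAB10, which carry cargo to the plasma membrane, were at -0.17 ± 0.14 and 0.16 ± 0.16. RAB3IP, an exchange factor that activates RAB8 proteins and not a Rab itself, had the highest mean ratio of the family at 0.17 ± 0.18, which was -0.04 without array 3. RAB10 had 3 kept probes between -0.10 and 0.17.

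Rabs of late endosomes and lysosome-related organelles had 4 of 5 values below 0 and a median of -0.11. RAB38, which serves lysosome-related organelles, had the lowest mean ratio of all members, -0.61 ± 0.34 (SE, n = 4; 95% interval -1.46 to 0.23). Its log2 signals were 10.40, 8.92, 9.90 and 9.12 in NEFA pools, against 9.94, 9.47, 10.15 and 11.24 in control pools. The value rested on array 4, where the ratio was -2.12, and was -0.15 without it. RAB24, linked to autophagy, was at -0.32 ± 0.19, and at -0.09 without array 1. Its other 2 kept probes were both at 0.14, with SE of 0.30 and 0.14. The one with the smaller SE was kept through the NEFA pools alone, which favours a ratio above 0, and its sign is not interpreted. RAB7A, the Rab of late endosomes, was at -0.05 ± 0.14 with ratios of 0.28, -0.03, -0.18 and -0.28. RAB9A, which returns receptors from late endosomes to the Golgi, was at 0.14 ± 0.17. RAB20 passed the limit in 3 of 4 control pools and in none of the NEFA pools, and was named after its values were seen. Its mean log2 signals were 8.10 in NEFA pools and 8.16 in control pools. It was kept through the control pools alone, and nothing is read from it.

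Among the Arf, Arl and Sar1 genes, 6 of 14 had mean ratios above 0 and 8 below, with a family median of -0.02. ARF4, a Golgi Arf with 4 kept probes, was at -0.02 ± 0.15 with the probe used for the gene, and 3 of the 4 probes were above 0. The probes at 0.27 and 0.10 were kept through the NEFA pools alone, which favours a ratio above 0, and their signs are not interpreted. The remaining probe was at 0.05 ± 0.16. ARF6, the Arf of the plasma membrane and of endosomal recycling, had log2 signals of 12.33, 11.38, 11.58 and 13.20 in NEFA pools, against 12.33, 12.38, 11.65 and 12.26 in control pools. The control pools lay within the range of the NEFA pools, and arrays 2 and 4 differed by similar sizes in opposite directions. Its mean ratio was -0.03 ± 0.25. ARL1, which recruits golgins to the trans-Golgi, was at -0.16 ± 0.15.

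SAR1A and SAR1B, the paired GTPases that start COPII coats at the endoplasmic reticulum, were at -0.24 ± 0.18 and -0.02 ± 0.14. SAR1B, which is required for the export of lipoprotein particles from the intestine in humans, had ratios of -0.13, 0.09, 0.09 and -0.14, all close to 0. SAR1A had the lowest mean of the family, with 0.45 on array 2 and -0.39, -0.43 and -0.60 on the other arrays, and was at -0.03 without array 1. ARL6IP6, named as a partner of an Arl protein and not a GTPase, had the highest at 0.23 ± 0.23, and was at -0.05 without array 4.

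SNARE genes, which encode the proteins that pull membranes together, had 6 of 11 mean ratios above 0 and 5 below. The family median was 0.05, and it changed sign under median centring, to -0.02, and lay between -0.11 and 0.17 with 1 array left out. The medians of single arrays lay further apart than in the other families (SD of 0.04 to 0.15), at 0.04, -0.31, -0.08 and 0.30 on arrays 1 to 4, and their mean was -0.01 ± 0.25 (SD, n = 4). SNAP23, the partner of plasma membrane syntaxins outside neurons, had log2 signals of 10.53, 9.34, 9.61 and 10.47 in NEFA pools, against 9.49, 10.34, 9.92 and 9.68 in control pools. The pools of both conditions overlapped, and the mean ratio was 0.13 ± 0.37.

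STX4, a syntaxin of the basolateral plasma membrane, had ratios of -0.04, -1.08, -0.08 and 1.09, with a mean of -0.03 ± 0.27. STX3, its apical counterpart in epithelia, was at 0.12 ± 0.16, and STX7, of late endosomes, at 0.05 ± 0.16. STX17, the syntaxin of autophagosome fusion, was at 0.05 ± 0.14 with ratios of -0.02, -0.31, 0.24 and 0.31. VAMP4, a vesicle SNARE between endosomes and the Golgi, was the sole VAMP gene measured of 4 with a probe, at -0.03 ± 0.16. SNAP29, which works with STX17, had the lowest mean of the family at -0.16 ± 0.16 and was at -0.02 without array 4. SNAP91, a clathrin assembly protein rather than a SNARE despite its symbol, had the highest at 0.22 ± 0.33, and was at -0.24 without array 4.

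**Figure D3:**
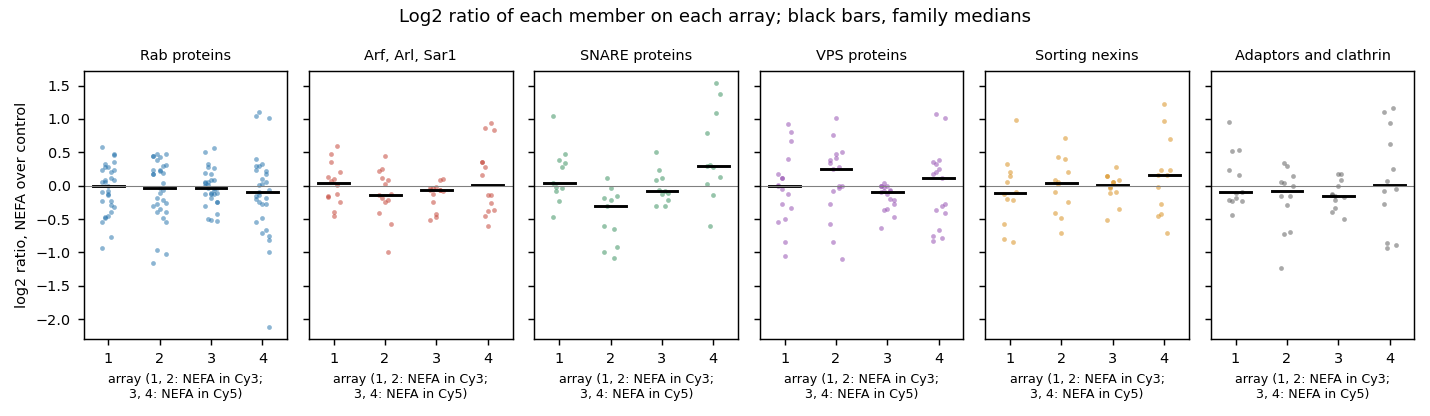
Log2 ratio of NEFA over control (y axis) of each measured member on each of the 4 arrays (x axis), by family, with black bars at the family medians. The SNARE medians lie at -0.31 on array 2 and 0.30 on array 4, and single members reach -2.12 and 1.54 on array 4.

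VPS genes had 8 of 17 mean ratios above 0 and 9 below, with a median within 0.01 of 0 and array medians of -0.01, 0.25, -0.09 and 0.11. For the retromer coat and its sorting nexins, which pull receptors back from endosomes, 6 of 8 genes with a probe were measured, 2 above and 4 below 0. VPS26A and VPS29, both core subunits, were at -0.01 ± 0.15 and 0.12 ± 0.14. VPS29 had log2 signals of 14.40, 14.44, 14.26 and 14.47 in NEFA pools, against 14.29, 14.19, 14.33 and 14.26 in control pools, and the conditions overlapped. SNX3, a cargo adaptor of retromer, was at -0.31 ± 0.25 and SNX6, which pairs with SNX1, at -0.19 ± 0.17. SNX3 had ratios of -0.85, 0.40, -0.09 and -0.71, and was at 0.00 without array 1 and at -0.16 without array 4. SNX6 rested on array 1, with a ratio of -0.80, and was at -0.02 without it. The second kept probe of SNX6 was at -0.21 ± 0.20, with -1.22 on array 1.

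The HOPS and CORVET tethers, which act in membrane fusion along the route of endosomes and lysosomes, had 5 measured genes with 2 values above 0. Their median ratio was 0.47 on array 2 and -0.37 on array 4. VPS33A, their SNARE-binding subunit, was at -0.20 ± 0.21, and at 0.04 without array 1. VPS39 was at -0.08 ± 0.17 (0.08 without array 4) and VPS41 at 0.04 ± 0.16. None of the 5 had the same direction on 4 of 4 arrays. Among ESCRT subunits, VPS28 apart, the ATPases VPS4A and VPS4B that take the complex off the membrane were at -0.18 ± 0.18 and -0.11 ± 0.19. VPS4A was at 0.00 without array 4, and VPS4B at 0.10 without array 1. VPS36, a subunit of ESCRT-II, had the highest mean of the VPS genes at 0.21 ± 0.20, from a ratio of 0.93 on array 1, and was at -0.02 without that array. Of the sorting nexins, 7 of 12 were above 0 and the median was 0.06, which was -0.02 under median centring and between -0.06 and 0.07 with 1 array left out. SNX13 had the highest mean at 0.26 ± 0.23, with 0.99 on array 1, and was at -0.05 without it.

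Adaptor and clathrin genes had 5 of 12 mean ratios above 0 and 7 below, with a family median of -0.08. The sign of this median was not stable: it was 0.04 without array 2, and also when all kept probes of a gene were averaged. That average takes in an AP2B1 probe at 0.47 that was kept through the NEFA pools alone. The filter favours a ratio above 0 for such a probe, so the sign under averaging is not interpreted. CLTC, the clathrin heavy chain that forms the cage, had log2 signals of 14.47, 14.73, 14.38 and 14.17 in NEFA pools, against 14.70, 14.39, 14.60 and 15.02 in control pools. It was lower in the NEFA pool on 3 of 4 arrays, at -0.24 ± 0.18, and at -0.08 without array 4. CLTB, the other light chain, was at 0.15 ± 0.19, and at -0.08 without array 1.

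In the endocytic adaptor AP-2, which links clathrin to receptors at the plasma membrane, 3 of 4 genes with a probe were measured. AP2A1, a large subunit, was at 0.27 ± 0.28, the highest mean of all members, and at 0.00 without array 4. AP2B1, the other large subunit, was at -0.08 ± 0.14, and its other 2 kept probes were at -0.04 ± 0.14 and 0.47 ± 0.33. The probe at 0.47 was kept through the NEFA pools alone, which favours a ratio above 0, and its sign is not interpreted. AP2S1, the small subunit, had log2 signals of 13.79, 12.69, 12.83 and 14.01 in NEFA pools, against 13.56, 13.92, 13.23 and 12.91 in control pools. Its ratios covered more than a 2-fold change in either direction, and the mean was -0.07 ± 0.34.

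Large differences on single arrays that cancelled in the mean were common. On at least 1 array, 48 of 97 members differed 1.5-fold or more between the NEFA and the control pool, as 44% of measured genes did, against the single member that did so on the mean. By array the members numbered 13, 18, 1 and 35, or 13.4%, 18.6%, 1.03% and 36.1% of them, against 17.6%, 15.2%, 5.02% and 25.1% of measured genes. A set of 13 members was at least 1.5-fold lower in NEFA on array 2 and at least 1.5-fold higher in NEFA on array 4. This rule, and the members it names that are not named above (RAB39B, RAB6B, STX10, SNX11, VPS13C and VPS26B), were chosen after the values were seen, and no test is given. The set is 13.4% of the members, against 6.65% of measured genes, and 0 members had the reverse pattern, against 2.06%. It held AP2A1, AP2S1, ARF6, RAB13, RAB39B, RAB6B, SNAP23, SNAP91, STX10, STX4, SNX11, VPS13C and VPS26B. In these genes the ratio ran from -1.23 to -0.65 on array 2 and from 0.79 to 1.54 on array 4, while array 3 gave -0.47 to 0.08 and array 1 gave -0.28 to 1.04. Their means lay between -0.07 and 0.27, and the 95% interval of each included 0. Of the 11 genes with SNARE symbols, SNAP23, STX4, STX10 and SNAP91, the last not a SNARE, were in the set.

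Further probes of the same genes were read against the same rule. Among all 125 kept member probes, 16 probes of 16 genes met it. Of these genes 7 had further kept probes, and in 7 of 7 the further probes did not. The further probe of RAB13 (-0.48 and 0.25), 1 of those of AP2S1 (-0.17 and 0.05) and 1 of those of ARL6IP4 (-0.58 and 0.83, just short of 1.5-fold on array 2) still had the same signs on arrays 2 and 4. STX4 had ratios of -1.08 on array 2 and 1.09 on array 4 with the probe used for the gene, and of 1.20 and -0.61 with its other probe. CLTA had -0.01 and -0.89 with the first probe, and -0.85 and 1.33 with the second. RAB24 had 0.43 and -0.71 with the probe used, -0.97 and 1.40 with another, and 0.06 and 0.22 with the third. For STX4, and for the probe used and the first other probe of RAB24, the directions were therefore opposite on both arrays. With the orientations of arrays 2 and 3 exchanged against their labels, limma called 10 members at an adjusted p under 0.05 (10.3%), against 6.96% of all tested probes. All 10 were among the 13. The rule picked opposite signs on arrays 2 and 4, and the exchange turns the sign of array 2, so the rule itself favours this overlap. Nothing is read from these calls about NEFA.

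**Figure D4:**
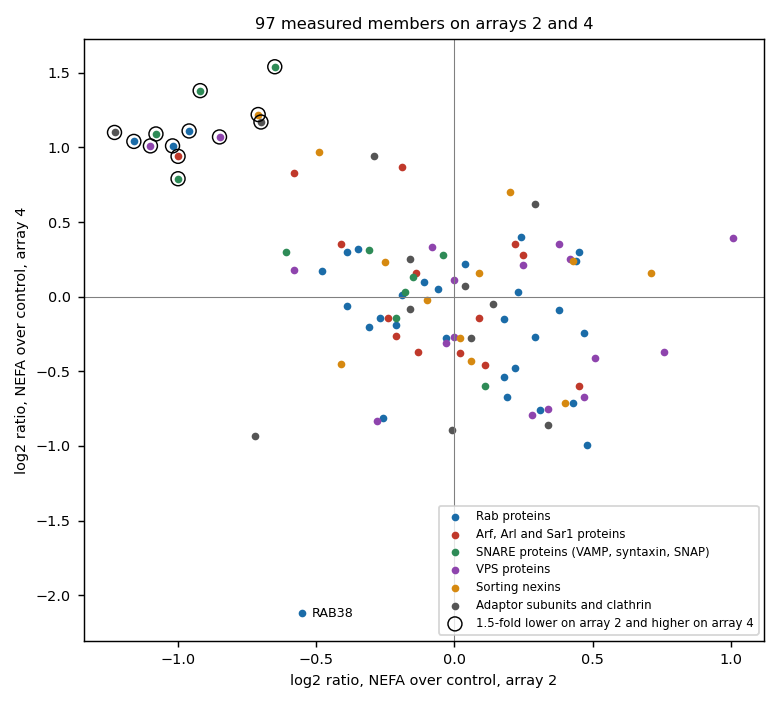
Log2 ratio of NEFA over control on array 2 (x axis) and on array 4 (y axis) for the 97 measured members, coloured by family. The 13 ringed members lie at the upper left, at -1.23 to -0.65 on array 2 and 0.79 to 1.54 on array 4, and the correlation over all 97 points is -0.52.

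Probes of the same gene did not always share a direction. For 20 members 2 or more probes were kept. For 12 of these the mean ratios lay on both sides of 0, namely AP2B1, AP2S1, ARF4, ARL6IP4, CLTA, RAB10, RAB11FIP4, RAB13, RAB24, SNX7, VPS16 and VPS41. In AP2B1, RAB11FIP4 and RAB13 the difference rests on a probe kept through 1 condition alone, and the filter favours the sign that such a probe showed. The share over all measured genes with several kept probes is not given, so the count is a description only. The median span between probes of a gene was 0.19, and the widest was 0.69 for CLTA. For VPS16, VPS41 and RAB11FIP4 the span was under 0.1, so those signs differ only around 0.

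Other genes of the same pathways were measured with the same fit. From 7 lists of regulators, coats and tethers, 95 of 152 genes with a probe were kept, 40 above and 55 below 0, and 0 passed the adjusted threshold. Their median was -0.02, next to -0.01 for the members and -0.01 for all measured genes. The tethers had 11 of 16 values below 0 and a median of -0.12. The genes of these lists named here were chosen after their values were seen. Of the 6 measured subunits of the TRAPP complexes, which activate RAB1 proteins, TRAPPC2L, TRAPPC3 and TRAPPC4 were lower on 4 of 4 arrays, as 4.31% of measured genes were. The other subunits were at 0.10 (TRAPPC2), -0.17 (TRAPPC5) and 0.10 (TRAPPC6B), with arrays on both sides of 0. TRAPPC4 had ratios of -0.22, -0.32, -0.26 and -0.48 and a mean of -0.32 ± 0.14 (SE, n = 4; limma adjusted p = 1.00). Higher on 4 of 4 arrays were SEC22C and STXBP2 among SNAREs and their regulators. STXBP2, which binds syntaxins in secretion, had ratios of 0.34, 0.21, 0.18 and 0.32, and a mean of 0.27 ± 0.14. In COPI and COPII coats 6 of 11 genes were above 0, in Arf regulators 5 of 12, in clathrin accessory proteins 6 of 14 and in the other ESCRT proteins 4 of 9. Among Rab regulators 9 of 19 were above 0. EVI5, which inactivates Rab proteins, was the one gene of these lists at an unadjusted p under 0.05, which 1.42% of measured genes reached. It passed the limit in 2 NEFA pools and 3 control pools, so it was kept through the control pools alone and nothing is read from its value. DAB2, a clathrin accessory gene, also stands among the trophectoderm markers.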

How the data were processed

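Total RNA of blastocyst pools was amplified and labelled with Cy3 or Cy5, per the labels' protocols. Per the file headers, the deposited scanner output lists raw intensity and local background of every spot as pixel medians, without normalisation (Cy3 read at 532 nm, Cy5 at 635 nm). The authors' deposited table holds log2 ratios. It correlated at r = 0.906 to 0.974 with Cy5 over Cy3 from the scanner values, so the dye swap is not turned in it. The column medians were -0.020, -0.023, -0.022 and -0.023, and its centring is unknown. The submitters' processing notes name limma, without steps.

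Intensities were corrected with normexp (offset 50) and loess within arrays, control spots at weight 0. Probes flagged by the scanner (35 to 75 an array) were dropped from that array. Negative controls numbered 153. Signals per pool came from Aquantile scaling after loess. Limma 3.58.1 (R 4.3.3) fitted a dye term and a NEFA term (2 residual and 3.68 prior degrees of freedom, two-sided, Benjamini-Hochberg over all kept probes). Values are log2 ratios with SE and n = 4 arrays unless stated. One probe stands for a gene: kept, without a flag, brightest. The number of arrays limits precision. No slide or scan date entered the fit. In data simulated from 17073 probes with 200 changed, the fit recovered 17.6% of 2-fold and 94.6% of 4-fold changes for this comparison, and 7 of its 113 calls were false. Symbols are those of GEO's platform annotation and may be outdated. No coordinates or sequences are given.

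Members, lists, tests and alternatives were chosen with earlier results of these data known. Named members were those at an unadjusted p under 0.05, those with the smallest p, the highest or the lowest ratio of a family, a panel of 67 well-studied members (43 measured), those detected in 4 pools of a condition and at most 1 of the other, and those whose probes differ in sign. Alternatives were background correction, centring, filter, dye term, the authors' values, probe averaging, arrays left out, and the orientations of arrays 2 and 3 exchanged, listed because an earlier analysis had found many calls that way.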

Additional observations from a re-analysis of the deposited data

Results flagged for a closer look

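SNX14, a sorting nexin, had a log2 ratio of NEFA over control of -0.58 on array 1, against 0.09 to 0.16 on the other arrays. VPS54, a subunit of an endosome-to-Golgi tether, had 0.33 on array 4, against -0.08 to -0.02 on the others. In both, 1 array stood apart from the other 3 by more than Dixon's 95% limit allows, in 2 of 104 sets of 4 values examined, where chance flags about 1 in 20. Both genes were chosen after their values were seen. The mean of SNX14 was -0.05, and 0.12 without array 1. The mean of VPS54 was 0.05, and -0.04 without array 4.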

How the results depend on the processing

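The fit is paired by construction, since each ratio sets a NEFA pool against the control pool of the same array, and replicate numbers give no further block to try. The count of members past the adjusted threshold was 0 under every alternative run except one. With the orientations of arrays 2 and 3 exchanged it was 10 of 97 (10.3%, against 6.96% of probes), with 19 members at an unadjusted p under 0.05, 19 in 1 direction on all arrays, and family medians of -0.093 for Rab and 0.057 for adaptor and clathrin genes. Exchanging arrays 1 and 4 instead would turn every sign, so these calls fix no direction and do not test NEFA. With that exchange AP2S1 was at 0.74, ARF6 at 0.51 and STX4 at 0.55, each past the adjusted threshold with the sign turned. The cause was not tested. RAB27A was then at -0.11, SNX1 at 0.09, VPS28 at 0.02 and CLTA at -0.12. Under median centring 10 members had 1 direction on all arrays and the Arf, Arl and Sar1 median was -0.10. Limited to the 76 members above background in all 8 pools, 2 had an unadjusted p under 0.05. RAB27A, SNX1, VPS28 and CLTA were all among the 76, and that fit was run on 10951 probes. Averaging the kept probes of a gene, an AP2B1 probe kept through the NEFA pools alone among them, put the adaptor and clathrin median at 0.039. With 1 array left out, 0 to 5 members had an unadjusted p under 0.05, 13 to 25 had 1 direction on the remaining arrays, which are fewer, and medians ran from -0.073 to -0.029 for Rab, from -0.12 to 0.042 for adaptor and clathrin genes and from -0.057 to 0.067 for sorting nexins. Arrays left out one at a time put 30 to 49 members above 0, and median centring 34. The sign held whichever array was left out for 33 of 97 members, and under every other alternative but the exchange for 74. A limit of mean plus 3 SD of the negative controls kept 84 members.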
